A study of Homo sapiens with 6 samples.

Results

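The 10 genes described here encode matricellular and microfibril glycoproteins of the extracellular matrix, namely *SPARC*, *POSTN*, *FBN1*, *FBN2*, *MGP*, *FN1*, *TNC*, *THBS1*, *THBS2* and *TGFBI*. They were taken by gene symbol from the 58735 genes of the deposited table, and each symbol matched 1 gene. The set was put together with the difference between sgCtrl and sg*NF2*-1 already known, so that difference, and the calls made from it, are given for these genes as a description, with no p-value and as no evidence of an effect. The RNA came from H2452, an established line of pleural mesothelioma, with 3 libraries of cells that carry a scrambled sgRNA (sgCtrl, labelled wild type) and 3 of cells that carry an sgRNA against *NF2* (sg*NF2*-1). *NF2* encodes Merlin, an activator of the Hippo kinases that restrain the transcriptional co-activators YAP and TAZ. Both groups received the same lentiviral Cas9 and mCherry vector, were sorted for mCherry and were grown in RPMI-1640 with fetal bovine serum, and the labels list no further treatment. A single *NF2* guide was sequenced, in a single cell line, and the labels do not say whether the 3 libraries of a group came from separate cultures. The authors describe their n in general as biological replicates, without detail for these libraries. The p-values below therefore set the group difference against the spread between these libraries, which may be technical.

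Matricellular proteins are secreted into the matrix and modulate how cells adhere, migrate and receive growth factors, rather than serving mainly as scaffold. SPARC, periostin (*POSTN*), TGFBI, tenascin-C (*TNC*) and the thrombospondins belong to this class, and several of them bind integrins and collagens. Fibrillins (*FBN1*, *FBN2*) polymerise into microfibrils that carry elastin and, through latent TGF-beta binding proteins, hold TGF-beta in the matrix in a latent form. Fibronectin (*FN1*) is the adhesive glycoprotein on which many other matrix fibres assemble, and matrix Gla protein (*MGP*) is a vitamin K-dependent inhibitor of calcification. In pleura, mesothelial cells make much of the submesothelial matrix, and mesothelioma cells can lay down matrix of their own.

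Total counts ranged from 14782423 to 17416463 per library. Levels are given as deposited FPKM, which is per gene length and can be compared between genes, or as CPM, the count relative to a TMM-scaled library total, which is compared only between libraries. Counts of the targeted gene were 1162, 1197 and 1025 in sgCtrl and 692, 802 and 590 in sg*NF2*-1, and edgeR put the log2 fold change at -0.69 (standard error 0.10, adjusted p = 7.9e-06). No sg*NF2*-1 library reached the *NF2* level of an sgCtrl library (exact permutation test, two-sided p = 0.10, which is the minimum for 3 libraries in each group). Replicates varied more than counting alone would give, since the chi-square over its degrees of freedom was 5.12 to 12.6 for library pairs of 1 group and 40.0 to 52.6 for pairs across the groups. Because RNA was taken in bulk, fewer cells expressing a gene and less of its RNA per cell cannot be told apart.

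The proximal promoters of the 2 fibrillin genes are shown first, since these paralogs moved in opposite directions in the libraries. They are the 250 bases before the RefSeq start on GRCh38.p14, on the strand of the gene, at chr15:48644971-48645220 for *FBN1* and chr5:128538246-128538495 for *FBN2*, both on the minus strand. Capitals mark the letters GGAATG, the core to which TEAD factors, the DNA-binding partners of YAP and TAZ, are known to bind. The start used for *FBN2* lies 120940 bases inside the gene's span in the count table, and that for *FBN1* 879 bases inside it.
FBN1: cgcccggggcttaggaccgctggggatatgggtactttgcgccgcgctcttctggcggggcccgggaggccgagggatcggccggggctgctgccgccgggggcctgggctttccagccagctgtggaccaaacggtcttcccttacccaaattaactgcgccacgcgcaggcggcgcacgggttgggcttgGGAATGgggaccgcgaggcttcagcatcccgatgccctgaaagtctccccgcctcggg
FBN2: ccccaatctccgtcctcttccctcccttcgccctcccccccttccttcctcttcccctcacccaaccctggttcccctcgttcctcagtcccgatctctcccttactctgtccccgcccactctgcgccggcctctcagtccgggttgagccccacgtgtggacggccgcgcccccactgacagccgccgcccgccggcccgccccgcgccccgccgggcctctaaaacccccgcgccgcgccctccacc
Both windows are rich in CpG, with 25 CpG each and 69.6% GC for *FBN1* and 72.8% for *FBN2*, against a median of 58% over 35116 promoters of the same length. *FBN1* holds GGAATG from 58 to 53 bases before the start and *FBN2* holds no match on either strand.

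Of the 10 genes, 9 had a promoter in the RefSeq table, the exception being *MGP*. GGAATG or its complement CATTCC was present in 4 of these 9, *SPARC*, *FBN1*, *THBS1* and *THBS2*, and in 11.9% of all 35116 promoters. The windows of 30 bases around the matches in the other genes, on the strand of the gene, are given so that position and context can be compared.
SPARC, chr5:151686916-151686945, minus strand: ctaaacccctccaCATTCCcgcggtccttc
THBS1, chr15:39581021-39581050, plus strand: gaggaatccccaGGAATGcgagcgcccctt
THBS2, chr6:169253926-169253955, minus strand: tgatgtCATTCCttcgaaGGAATGaattaa
The *THBS2* window carries the motif on both strands, and the 18 bases from the first match to the last equal their own reverse complement, with 6 bases between the matches. The AP-1 element TGANTCA occurred in *POSTN* alone of the 9, and in 6.57% of all promoters, and the TATA box TATAAA in *POSTN* and *THBS2* and in 10.7% of all. Both are shown for *POSTN*, the gene with the lowest fitted fold change among those with a promoter sequence, at chr13:37598971-37599000 and chr13:37598780-37598809, minus strand.
POSTN, AP-1 in capitals: ttaaacatgcagTGAGTCAattgttcatat
POSTN, TATA box in capitals: ctctgacatgtaTATAAAttctgagctctc
The SMAD motif CAGACA or its complement occurred in *TNC* and, at 2 positions, in *THBS2*, and in 13.6% of all promoters, and the CArG box bound by SRF in none of the 9 and in 1.16% of all. *FBN2*, *FN1* and *TGFBI* held none of the 5 motifs. The start used lies inside the span in the count table by 250 bases for *SPARC*, 198 for *THBS2* and 76 for *POSTN*. For *FN1*, *TNC* and *TGFBI* it is 104, 100 and 93 bases, and for *THBS1* 0. Annotated exons cover 250 bases of the *SPARC* window, 161 of *FN1* and 105 of *THBS2*. They cover 100 of *TNC*, 93 of *TGFBI*, 76 of *POSTN* and 0 of the other windows. The GGAATG matches of *SPARC*, *FBN1* and *THBS2* and the TATA box shown for *POSTN* thus lie inside those spans. A match of letters is a description of the window and not a site of binding.

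In the RNA of H2452 cells, 9 of the 10 genes were lower in sg*NF2*-1 and 1, *FBN2*, was higher. In all 10, the 3 sg*NF2*-1 libraries did not overlap the 3 sgCtrl libraries. Among all 14179 tested genes, edgeR called 16.6% lower and 17.7% higher at an adjusted p under 0.05, or 34.3% in either direction, and 22.2% had all sg*NF2*-1 libraries below and 23.2% all above the sgCtrl libraries. The median log2 fold change of the 10 genes was -0.96, and that of all tested genes was -0.003, with 7127 below 0 and 7052 above. With a further log2 fold limit of 0.5, the 9 lower genes and *FBN2* still passed, as did 9.32% of all tested genes in the lower and 8.42% in the higher direction. The genes were chosen on this difference, so their counts carry no evidence beyond it. The 10 genes passed the expression filter, *MGP* only through its sgCtrl libraries, since none of its sg*NF2*-1 libraries reached the cutoff of 0.645 CPM.

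The 10 genes spanned a wide range of levels. In sgCtrl their mean FPKM ran from 268 for *SPARC* through 174 for *TGFBI* and 52.8 for *FBN1* to 1.26 for *MGP*. *SPARC*, *TGFBI* and *FBN1* made up 90.5% to 92.6% of the summed FPKM of the set in every library. The summed FPKM was 519, 544 and 545 in the sgCtrl libraries and 250.4, 258 and 243 in the sg*NF2*-1 libraries, and the 10 genes took 0.402% to 0.432% of all counts in sgCtrl and 0.185% to 0.206% in sg*NF2*-1. The order of the mean FPKM in sgCtrl was *SPARC*, *TGFBI*, *FBN1*, *THBS2*, *TNC*, *THBS1*, *FN1*, *FBN2*, *POSTN* and *MGP*. Neighbours in that order whose sgCtrl libraries overlapped were *THBS2* and *TNC*, *THBS1* and *FN1*, and *FBN2* and *POSTN*. In sg*NF2*-1 the order was the same except that *FBN2* stood above *THBS1* and *FN1*, moving from place 8 to place 6, and its libraries, at 3.76 to 4.61 FPKM, overlapped those of *THBS1*, the next gene in the order, at 3.16 to 4.08 FPKM.

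**Figure D1:**
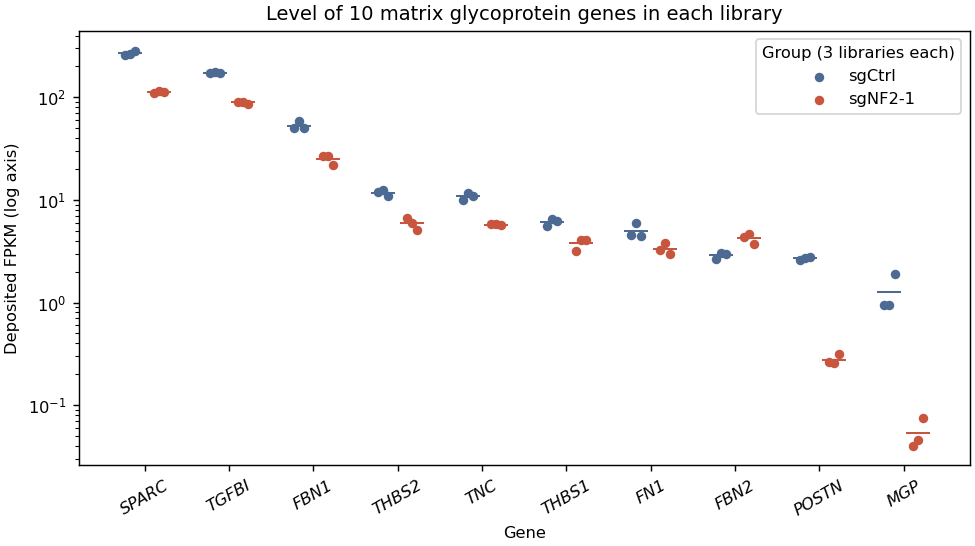
Deposited FPKM (log axis) of the 10 genes in each of the 6 libraries, with blue points for sgCtrl, red points for sg*NF2*-1 and a horizontal line at each group mean. *SPARC*, *TGFBI* and *FBN1* lie at the top, *FBN2* is the gene whose red points are above its blue points, and *POSTN* and *MGP* have the widest gaps between the groups.

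Among the collagen-binding and fasciclin-domain proteins, *SPARC* (ENSG00000113140, chromosome 5, 151661096 to 151687165), which encodes a calcium- and collagen-binding glycoprotein also called osteonectin, had the highest level. Its FPKM was 258, 264 and 283 in sgCtrl and 110.2, 116 and 112 in sg*NF2*-1. The mean CPM went from 1366 ± 66.7 to 579.7 ± 13.9 (SD, n = 3 each), so the sg*NF2*-1 mean was 42.4% of the sgCtrl mean. The fitted log2 fold change was -1.24 with a standard error of 0.08.

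*TGFBI* (ENSG00000120708, chromosome 5, 136028895 to 136063818) encodes a fasciclin-domain protein that binds integrins and collagens and is induced by TGF-beta in many cells. Its FPKM was 172, 178 and 171 in sgCtrl and 89.9, 90.3 and 86.9 in sg*NF2*-1. The libraries of each group lay close together, with CPM of 1429.8 ± 27.9 and 739.2 ± 14.4 (SD, n = 3 each). The log2 fold change was -0.95 (standard error 0.08), and leaving out each library in turn moved it only between -0.96 and -0.93.

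*POSTN* (ENSG00000133110, chromosome 13, 37562583 to 37598844) encodes periostin, the other fasciclin-domain protein of the set, a ligand of alpha-v integrins. Its counts were 237, 259 and 244 in sgCtrl and 27, 23 and 26 in sg*NF2*-1. No library stood apart within its group, and the sg*NF2*-1 level of 1.61 ± 0.182 CPM was 10.3% of the sgCtrl level of 15.6 ± 0.535 CPM (SD, n = 3 each). The log2 fold change was -3.27 (standard error 0.18). The relation of *POSTN* to *TGFBI* therefore shifted. The FPKM of *TGFBI* was 66.1, 64.9 and 61.4 times that of *POSTN* in the sgCtrl libraries and 341, 352 and 277 times in the sg*NF2*-1 libraries. The ratio of *SPARC* to *TGFBI* moved less, from 1.497, 1.486 and 1.654 to 1.23, 1.28 and 1.29.

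The fibrillins were the pair in which the direction split. *FBN1* (ENSG00000166147, chromosome 15, 48408306 to 48645849), the main fibrillin of adult microfibrils, had an FPKM of 49.7, 58.3 and 50.4 in sgCtrl and 26.7, 26.7 and 22.1 in sg*NF2*-1. Its highest library was sgCtrl replicate 2 and its lowest sg*NF2*-1 replicate 3. In CPM it went from 893.5 ± 79.4 to 429.5 ± 45.3 (SD, n = 3 each), and the fitted log2 fold change was -1.06 (standard error 0.09).

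*FBN2* (ENSG00000138829, chromosome 5, 128257909 to 128659185), the fibrillin known mainly from development, had an FPKM of 2.65, 3.04 and 3.00 in sgCtrl and 4.40, 4.61 and 3.76 in sg*NF2*-1. Even the lowest sg*NF2*-1 library was above the highest sgCtrl library. Its CPM went from 40.3 ± 2.95 to 59.7 ± 6.13 (SD, n = 3 each), 148% of the sgCtrl mean, with a log2 fold change of 0.57 (standard error 0.10). The FPKM ratio of *FBN1* to *FBN2* was 18.7, 19.2 and 16.8 in the sgCtrl libraries and 6.08, 5.79 and 5.87 in the sg*NF2*-1 libraries. *FBN1* remained the more abundant fibrillin in every library.

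*MGP* (ENSG00000111341, chromosome 12, 14881181 to 14885926) was the gene with the fewest reads. It had 42, 43 and 80 counts in sgCtrl and 2, 2 and 3 in sg*NF2*-1. The sgCtrl libraries were uneven, since replicate 3 held nearly as many counts as the other two together. The summed counts of 165 against 7 gave a ratio of 23.5 with a 95% interval of 11.2 to 59.5 that covers counting error only. At such low counts the fitted log2 fold change of -4.49 (standard error 0.49) depends on the prior count of the fit. *GGCX* and *VKORC1*, the carboxylase and the vitamin K reductase that matrix Gla protein needs for its modification, had log2 fold changes of -0.25 (standard error 0.10, adjusted p = 0.057, edgeR) and -0.24 (standard error 0.15, adjusted p = 0.23, edgeR) and neither was called, although *GGCX* was called lower with library totals as the scaling (-0.28) or at 10 counts or more in every library (-0.26).

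*FN1* (ENSG00000115414, chromosome 2, 215360440 to 215436172), which encodes fibronectin, had an FPKM of 4.50, 5.95 and 4.48 in sgCtrl and 3.28, 3.78 and 2.95 in sg*NF2*-1. In each group replicate 2 was the highest, and the groups did not overlap. The CPM went from 90.8 ± 15.2 to 61.4 ± 7.58 (SD, n = 3 each), 67.7% of the sgCtrl mean and the nearest to it among the 9 lower genes. The log2 fold change of -0.56 (standard error 0.11) ranged from -0.66 to -0.42 when each library was left out, with the value nearest 0 without sgCtrl replicate 2. *FN1* was the one gene of the set that did not keep its call in every alternative, with a log2 fold change of -0.46 and no call by limma on log2(FPKM + 1) without a filter on low values.

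*TNC* (ENSG00000041982, chromosome 9, 115019578 to 115118257) encodes tenascin-C, a large glycoprotein that weakens cell adhesion to fibronectin. Its FPKM was 10.1, 11.7 and 10.9 in sgCtrl and 5.76, 5.78 and 5.68 in sg*NF2*-1. The sg*NF2*-1 libraries were nearly identical, at 58.8 ± 0.465 CPM against 110.6 ± 8.29 in sgCtrl (SD, n = 3 each). The log2 fold change was -0.91 (standard error 0.09). The FPKM ratio of *FN1* to *TNC* was 0.448, 0.508 and 0.410 in sgCtrl and 0.569, 0.655 and 0.519 in sg*NF2*-1, without overlap.

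Thrombospondin-1 and thrombospondin-2 are trimeric glycoproteins that bind CD47 and CD36, and thrombospondin-1 can also release TGF-beta from its latent complex. *THBS1* (ENSG00000137801, chromosome 15, 39581079 to 39599466) had an FPKM of 5.54, 6.48 and 6.29 in sgCtrl and 3.16, 4.08 and 4.05 in sg*NF2*-1. *THBS2* (ENSG00000186340, chromosome 6, 169215780 to 169254044) had an FPKM of 11.9, 12.4 and 10.9 in sgCtrl and 6.70, 5.92 and 5.11 in sg*NF2*-1. Within sg*NF2*-1, replicate 1 held the lowest *THBS1* and the highest *THBS2* level. The log2 fold change was -0.69 (standard error 0.11) for *THBS1* and -0.97 (standard error 0.10) for *THBS2*. Their FPKM ratio, *THBS2* over *THBS1*, was 2.15, 1.91 and 1.74 in sgCtrl and 2.12, 1.45 and 1.26 in sg*NF2*-1, and these values overlapped.

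Across the set, sgCtrl replicate 2 was the highest sgCtrl library for 7 genes and sgCtrl replicate 1 the lowest for 6. Among the sg*NF2*-1 libraries, replicate 2 was the highest for 5 genes and replicate 3 the lowest for 6. Genes on the opposite strand overlap 4 members with more than 10 counts on average in a group, and whether counting used strand is not given in the sources used here. *C12orf60*, opposite *MGP*, had a mean of 21.3 counts in sgCtrl and 13.7 in sg*NF2*-1, more than *MGP* itself had in sg*NF2*-1. For *THBS1*, *FSIP1* had 14.7 and 10, for *THBS2*, BX322234.1 had 16 and 22.7, and for *TNC*, ENSG00000173077 had 58.3 and 49.3, each far below the member's own count.

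*SPARC*, *FBN2* and *TGFBI* share chromosome 5, and *FBN1* and *THBS1* share chromosome 15. For each member the 5 nearest tested genes on either side were taken, and the median log2 fold change of these 10 lay between -0.31 for *MGP* and 0.20 for *POSTN*. *FBN1* had the most called neighbours, 5 lower and 1 higher, with a median of -0.21. Around *MGP*, 3 neighbours were lower, among them *RERG*, a small GTPase gene 227 kb away, at -3.05. In the fits without 1 library that gave it a value, *RERG* ranged from -4.72, without sg*NF2*-1 replicate 1, to -2.55. It gave a value in 10 alternatives on counts, against 12 for *FBN1*. *RERG* was named after its value was seen. The neighbours of *TNC* ran from -1.997 to 1.05, with 2 lower and 2 higher, and those of *SPARC* from -1.30 to 0.38, with 2 lower.

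**Figure D2:**
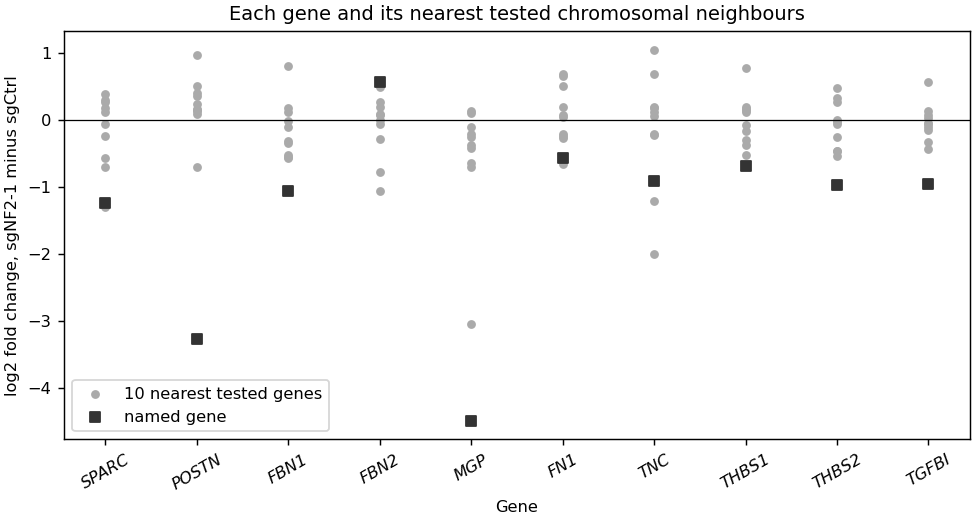
Log2 fold change (sg*NF2*-1 minus sgCtrl, edgeR) of each of the 10 genes (squares) and of its 10 nearest tested chromosomal neighbours (points). Most points lie near 0 while *POSTN* and *MGP* lie far below theirs, and 1 neighbour of *MGP* is at -3.05.

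Family relatives of the 10 genes were read from the same fit. A list of 48 relatives was read, covering SPARC-related proteins, thrombospondins, tenascins, CCN proteins, fibrillins, latent TGF-beta binding proteins, fibulins, emilins, multimerins and matrilins. Of these, 23 were tested, 4 were higher, 8 were lower and 11 were not called, with a median log2 fold change of -0.17. Among all tested genes 17.7% were higher and 16.6% lower, with a median of -0.003. These shares are the background for this list and for the lists that follow. The other 25 did not pass the filter and had at most 15 counts in any library, among them *SPARCL1*, *SMOC1*, *SMOC2*, *SPOCK2*, *SPOCK3*, *THBS4*, *COMP*, *TNR*, *TNN*, *FBN3* and the elastin gene *ELN*.

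Among the SPARC relatives, *FSTL1*, a follistatin-like secreted glycoprotein, fell by 0.69 on the log2 scale (standard error 0.08, adjusted p = 3.8e-07, edgeR), and *SPOCK1* had a value of 0.07 and was not called. The thrombospondin *THBS3*, at 9.42 and 8.94 FPKM in sgCtrl and sg*NF2*-1, and the tenascin *TNXB*, at 51.2 and 48.5 FPKM, both had a log2 fold change of -0.06 and were not called. The level of *TNXB* is uncertain, because a pseudogene copy, *TNXA*, shares much of its sequence. *MFAP4*, a microfibril-associated protein, fell by 1.40 (standard error 0.10, adjusted p = 3.9e-11, edgeR), from 40.1 to 15.1 FPKM, and *MFAP2* at -0.11 was not called.

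The latent TGF-beta binding proteins, some of which tether latent TGF-beta to fibrillin and fibronectin fibres, went in different directions. *LTBP3* was lower by a log2 fold change of -0.52 (adjusted p = 8.1e-05, edgeR). *LTBP1* was higher by 0.79 (standard error 0.25, adjusted p = 0.016, edgeR) at a level under 1 FPKM, and without sg*NF2*-1 replicate 3 its value was 0.54 and its call was lost (adjusted p = 0.14). *LTBP2* at -0.20 (adjusted p = 0.098) and *LTBP4* at -0.18 (adjusted p = 0.19, both edgeR) were not called, and *LTBP2* was called lower at -0.27 without sgCtrl replicate 3.

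The other relatives that rose were *MATN2* (matrilin-2), by 1.496 (standard error 0.11, adjusted p = 8.6e-11, edgeR), *CTGF*, a CCN protein and a known YAP target, by 0.74, and *EMILIN2* by 0.55. *CYR61*, the CCN paralog of *CTGF*, had a value of 0.18 and was not called (adjusted p = 0.12, edgeR). Those that fell were *SPP1* (osteopontin) at -2.83, *MMRN2* at -1.41 and *NOV*, another CCN gene, at -1.35, all 3 with low levels, together with *VTN* (vitronectin) at -0.41 and *EFEMP1* (fibulin-3) at -0.28. *SPP1* passed the expression filter only through sgCtrl. It had 33, 22 and 33 counts in sgCtrl and 3, 4 and 5 in sg*NF2*-1, and its standard error was 0.47. *VTN* lost its call without sg*NF2*-1 replicate 1 (-0.30) and *EFEMP1* without that library (-0.26) or sgCtrl replicate 2 (-0.26), while *CYR61* was called higher without sg*NF2*-1 replicate 3 (0.24). *VTN*, *EFEMP1*, *CYR61* and *MFAP2* were named after their values were seen. *EFEMP1*, at 282 FPKM in sgCtrl and 231 in sg*NF2*-1, stood beside *SPARC* at 268 FPKM in sgCtrl and 113 in sg*NF2*-1.

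**Figure D3:**
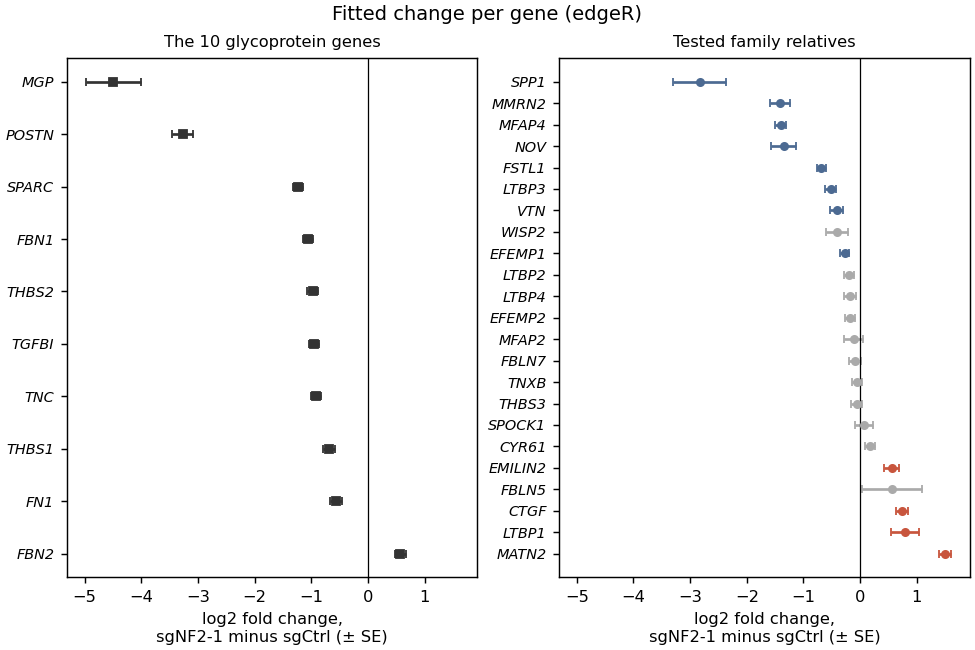
Fitted log2 fold change (sg*NF2*-1 minus sgCtrl, edgeR, bars are ± 1 standard error) of the 10 genes (left, black squares) and of the 23 tested relatives (right, blue for lower, red for higher and grey for not called). The relatives spread on both sides of 0, from *SPP1* at -2.83, which passed the expression filter only through sgCtrl, to *MATN2* at 1.496.

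Cells bind these glycoproteins through integrins, CD47, CD36 and syndecan-4. Of 14 receptor genes, 10 were tested, 6 were lower and none was higher, with a median log2 fold change of -0.56, against 16.6% lower and 17.7% higher among all tested genes. All 10 values were below 0, so that no receptor was higher at an unadjusted p in edgeR either, and DESeq2 also called 0 higher. *ITGB1*, the shared beta-1 subunit, fell by 0.58 (adjusted p = 1.2e-05), *ITGAV* by 0.57 (adjusted p = 7.7e-06), *ITGB5* by 0.55 (adjusted p = 7.3e-06) and *ITGA5*, which pairs with beta-1 as the fibronectin receptor, by 0.47 (adjusted p = 4.0e-05, all edgeR). *CD47*, the thrombospondin receptor, fell by 0.66 (adjusted p = 5.4e-07, edgeR). *ITGB8* fell by 1.12 at a level under 1 FPKM. *SDC4*, at 136 and 132 FPKM, and *ITGA3*, at 272 and 251 FPKM, were not called, and *CD36* was at 0 counts in every library.

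In a list of 14 genes of TGF-beta signalling, all tested, 3 were higher and 4 were lower, with a median of 0.14. The lower genes were *TGFB1* at -0.40 (adjusted p = 0.0011), the receptors *TGFBR2* at -0.46 (adjusted p = 5.7e-05) and *TGFBR3* at -0.89 (adjusted p = 8.8e-05), and the co-receptor *ENG* at -0.40 (adjusted p = 0.00074, all edgeR). The higher genes were the SMAD co-repressors *SKIL* at 0.39 (adjusted p = 0.0072) and *TGIF1* at 0.34 (adjusted p = 0.0032) and the signal carrier *SMAD4* at 0.21 (adjusted p = 0.047, all edgeR). *SMAD4* lost its call without any one library except sg*NF2*-1 replicate 3, with values from 0.18 to 0.23 in those fits, and in 11 of 15 alternatives in all, among them library totals and no filter, and *SKIL* lost it without sg*NF2*-1 replicate 2, at 0.33.

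Among 18 genes for enzymes and helpers that cleave, glycosylate, cross-link or assemble these proteins, 15 were tested, 3 were higher and 8 were lower, with a median of -0.38. *KDELC1* and *KDELC2*, glucosyltransferases of EGF-like repeats such as those of fibrillins, fell by 1.41 (adjusted p = 4.0e-08) and 0.58 (adjusted p = 5.8e-06, both edgeR). *POFUT2* and *B3GLCT*, which act one after the other on thrombospondin type 1 repeats, had -0.43 and -0.40 and were both called lower, as were the proteases *BMP1* at -0.45, *FURIN*, which cleaves profibrillin, at -0.38 and *ADAMTS10* at -1.08, and the secretory kinase *FAM20C* at -0.43. *B3GLCT* lost its call without sgCtrl replicate 3 or sg*NF2*-1 replicate 2, at -0.33 in either case. The genes that rose were *THSD4*, a promoter of fibrillin-1 assembly, by 0.93 (adjusted p = 3.6e-06), *ADAMTS6* by 0.49 (adjusted p = 0.00029) and *TGM2*, a transglutaminase that cross-links fibronectin, by 0.43 (adjusted p = 0.0056, all edgeR). *B3GLCT*, *FURIN*, *GGCX*, *VKORC1*, *SDC4*, *ITGA3* and *CD36* were named after their values were seen.

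**Figure D4:**
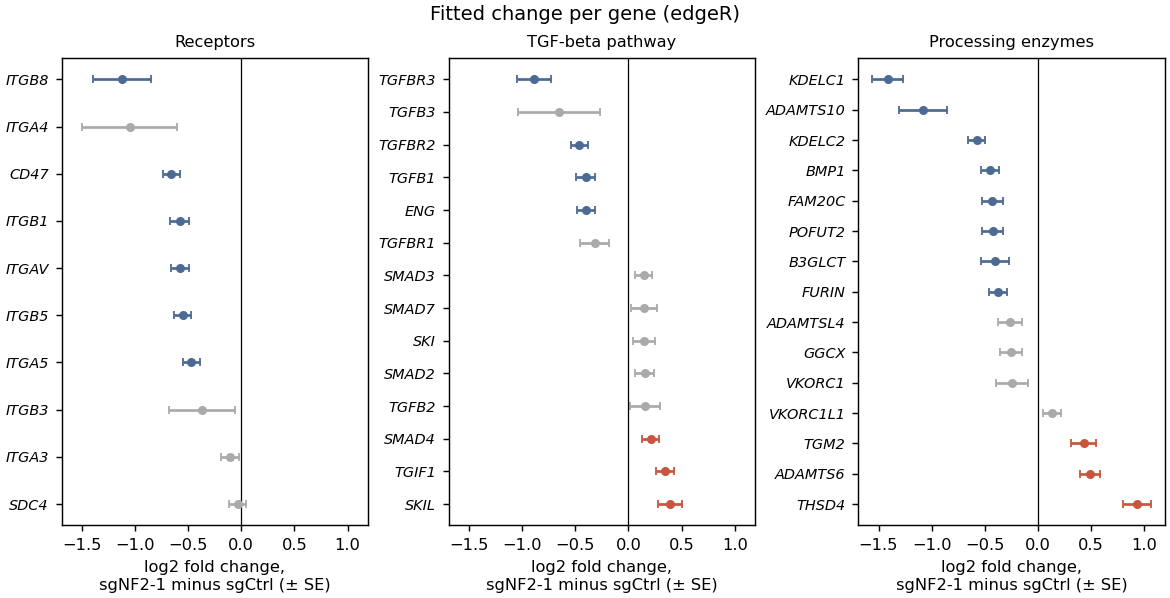
Fitted log2 fold change (sg*NF2*-1 minus sgCtrl, edgeR, bars are ± 1 standard error) of the tested receptors (left, 10 genes), TGF-beta pathway genes (middle, 14) and processing enzymes (right, 15), with blue for lower, red for higher and grey for not called. The receptors all lie below 0, while the other lists have genes on both sides.

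Several of the 10 genes are also abundant in fibroblasts, and marker lists of other cell types were read beside them. Of 12 fibroblast markers, 6 were tested and all 6 were lower, including *COL1A2* at -2.95 (adjusted p = 2.2e-15), *COL3A1* at -3.90 (adjusted p = 2.2e-15) and *PDGFRB* at -0.70 (adjusted p = 1.4e-06, all edgeR). Of the 6, *PRRX1* passed the expression filter only through sgCtrl, so its call carries little weight. It had 112, 103 and 145 counts in sgCtrl and 8, 3 and 3 in sg*NF2*-1. *PRRX1* was named after its values were seen, and its alternatives are not given here. *THY1*, at -0.52, lost its call without sgCtrl replicate 2 (-0.48) or without sg*NF2*-1 replicate 2 (-0.42). The summed FPKM of the list was 25.3 to 28.6 in sgCtrl and 8.58 to 8.89 in sg*NF2*-1. *DCN*, *LUM*, *DPT* and *TCF21*, also on the list, were at 0 counts in all 6 libraries, and *PDGFRA* and *FAP* had at most 3.

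Of 11 mesothelial markers, 9 were tested, 3 were higher and 3 were lower, and their summed FPKM was 778 to 873 in sgCtrl and 736 to 897 in sg*NF2*-1. The keratin *KRT7* rose by 1.20 and mesothelin (*MSLN*) by 0.66, while *PDPN* fell by 1.28, *WT1* by 1.04 and *KRT19* by 0.94. *KRT18*, at 0.28, lost its call without sgCtrl replicate 1 (0.26), sgCtrl replicate 2 (0.24) or sg*NF2*-1 replicate 3 (0.21). *CALB2* and *KRT8* were detected and not called. *CALB2* was called lower in 2 of 15 alternatives, and *KRT8* was called lower at -0.30 without sg*NF2*-1 replicate 3. *LRRN4* and *KRT5* had at most 5 counts in any library.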

How the data were processed

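RNA from 3 sgCtrl and 3 sg*NF2*-1 libraries of H2452 cells was sequenced by the authors as 150 bp paired-end reads on a NovaSeq platform. Unnormalised counts for each gene and FPKM were deposited, and the submitters' processing notes name hg38, HISAT2, StringTie 1.3.3b and featureCounts 1.5.0-p3. The deposited FPKM equalled count over gene length over 1 depth per library within 0.1%. The strand setting of the counting is not given in the sources used here, which leaves overlapping genes uncertain.

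Counts were filtered (filterByExpr, minimum count 10, minimum total 15), TMM-normalised and tested over 14179 genes with edgeR 4.0.16 quasi-likelihood (R 4.3.3) and Benjamini-Hochberg adjustment, and called at an adjusted p under 0.05. The alternatives used DESeq2 1.42.0, limma 3.58.1 on log2(FPKM + 1) or log2(FPKM + 0.1), other scalings and filters, a replicate block, a log2 fold limit of 0.5 and leaving out each library. The procedures were tested on simulated counts.

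Members, lists and markers were chosen with earlier results of these data known. Named genes are all members, *NF2*, up to 6 called genes per direction and list, all listed SPARC, thrombospondin, tenascin, fibrillin and LTBP relatives, markers with at least 1 FPKM and overlapping genes with a mean count above 10. Others are said to be named after their values were seen. A further gene of the TGF-beta pathway was left out of its list and is not reported here. Sequences are from RefSeq on GRCh38.p14, and motifs were searched on both strands of the 250 bases before each start.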

Additional observations from a re-analysis of the deposited data

How the results depend on the processing

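In all alternatives that gave a value, the 10 genes kept their direction, and 148 of 149 values kept their side of the threshold. The exception was *FN1* by limma without a filter (-0.46). Of 977 values of the other 66 named genes, 926 kept direction and side, 40 lost the call, 8 gained one and 3 changed sign. The same limma fit lost the calls of *LTBP1*, *VTN*, *EFEMP1*, *ITGB8*, *TGFB1*, *SKIL*, *SMAD4*, *TGM2*, *ADAMTS10*, *B3GLCT*, *KRT18*, *THY1*, *CSPG4* and *NOTCH3*. *MGP* gave no value at 10 counts or more in every library. With the fold limit of 0.5, all genes numbered 1194 higher and 1322 lower, TGF-beta pathway genes 0 higher and 1 lower, and processing enzymes 1 higher and 3 lower. By limma on log2(FPKM + 1) without a filter, all genes numbered 1277 higher and 1266 lower, and TGF-beta pathway genes 1 higher. Leaving out each library gave 2016 to 2514 genes higher, 1880 to 2271 lower, and 1 to 3 TGF-beta pathway genes higher, the lowest without sg*NF2*-1 replicate 2. The values of *SPOCK1*, not called, changed sign to -0.067 without sgCtrl replicate 1 and -0.026 without sg*NF2*-1 replicate 2 and ranged up to 0.152 as each library was left out, and those of *TNXB*, also not called, ranged from -0.126 to 0.035, above 0 without sgCtrl replicate 2. The cause of these changes was not tested, apart from the stricter rule of the fold limit itself. Deviations of same-numbered libraries correlated at -0.032, 0.057 and 0.050, and those of differently numbered libraries at -0.107 to 0.060. With 3 libraries in each group, these values cannot decide whether same-numbered libraries were handled together. With the replicate block, edgeR called 2698 genes higher and 2501 lower, against 2515 and 2351 in the main fit. The counts for the lists of relatives, receptors, TGF-beta pathway genes and processing enzymes were unchanged with the block. Of the named genes, the block added a call for *KRT8*. Depth limits *MGP*, with 7 counts in sg*NF2*-1, and the 25 relatives not tested.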

Other observations

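The TEAD core GGAATG was present in 11 of 33 promoters of the family relatives (33.3%), and among all tested genes with a promoter in 12.9% of the 1905 called higher, 12.5% of the 1755 called lower and 13.3% of the 6382 not called. The 33 relatives include genes that were not tested, so their share and the shares of tested genes cover unlike sets and are not compared. These shares are given as counts over RefSeq windows of 250 bases, with no test.

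Markers of other cell types were at low levels except *CD14*. Of 6 pericyte and smooth muscle markers, 5 were tested, 1 was higher (*MCAM*, log2 fold change 1.11) and 2 were lower (*NOTCH3*, -0.72, and *CSPG4*, -0.74, of which *CSPG4* lost its call in the 3 limma fits on FPKM and *NOTCH3* in the fit without a filter), with a summed FPKM of 3.28 to 4.50 in sgCtrl and 3.60 to 4.41 in sg*NF2*-1. Of 5 endothelial markers, 2 were tested and 1 was lower (*PECAM1*, -2.28, named after its value was seen), with a summed FPKM of 0.800 to 1.11 and 0.267 to 0.455. Of 5 leukocyte markers, *CD14* alone was tested and was lower (-1.06), from 69.9 to 33.3 FPKM, and *PTPRC*, the pan-leukocyte marker, was at 0 in every library. None of 4 epithelial markers passed the filter, and 3 of them were at 0 in every library.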
